A study of Mus musculus with 24 samples.

Results

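The genes described here are the nuclear-encoded subunits and assembly factors of mitochondrial complex I, measured in the gastrocnemius muscle of mice with and without LLC1 tumours. They are the 45 protein-coding genes of the deposited table whose names start with Nduf, out of 43346 genes in all. They comprise 7 core subunits, 29 accessory subunits, 7 assembly factors named Ndufaf1 to Ndufaf7, and the 2 genes Ndufa4 and Ndufa4l2, which carry the Nduf name but are not counted as complex I subunits. All 45 passed the filter on low counts and were among the 17773 genes tested.

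Gastrocnemius is the large calf muscle. The 4 groups were female LLC1, female vehicle, male LLC1 and male vehicle mice, 6 mice each and 24 libraries in all. All were C57BL6 mice, 7 weeks old when injected under the skin, and their muscle RNA was taken 3 weeks later. LLC1 mice received cells of a mouse Lewis lung carcinoma line, and vehicle mice received PBS with no cells, so the groups differ by a growing tumour of 1 cell line placed outside the lung. Libraries of polyadenylated RNA held 26.2 to 47.4 mega-counts of reads, and levels are in CPM, the reads of a gene per mega-count once TMM factors had scaled each library. Markers of skeletal muscle (8 genes) summed to 115000 to 190000 CPM, and none was at 0. Lane cannot be told apart from group, since each group had a separate one. The titles number the mice in the form 1-4 or 2-3, and the labels do not say what the first number stands for.

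Complex I is the entry point of the respiratory chain. It oxidises NADH, passes the electrons along a row of iron-sulphur clusters to ubiquinone, and uses the energy to pump protons across the inner mitochondrial membrane. The core subunits, conserved from bacteria, carry out this chemistry, the accessory subunits surround and stabilise them, and the assembly factors build or modify the complex without remaining in it. Muscle fibres with a high oxidative capacity are rich in it. Some core subunits of the membrane arm are encoded in mitochondrial DNA. The 7 mt-Nd genes stood at 0 counts in all 24 libraries of the deposited table and so were not measured, and nothing below speaks of them.

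In vehicle muscle the transcripts of the enzyme itself stood well above those of the factors that build it. Per kilobase of exon, the core subunits had a median of 113 CPM per kb, the lowest being Ndufs1 at 56.7. Accessory subunits had a median of 92.2 CPM per kb, between 11.1 for Ndufab1 and 452 for Ndufb9. Assembly factors had a median of 9.1 CPM per kb, between 5.35 for Ndufaf3 and 17.6 for Ndufaf5, and so lay below every core subunit. Ndufa4, now counted as a subunit of cytochrome c oxidase, was higher than any complex I subunit at 753 CPM per kb, while its relative Ndufa4l2 stood at 5.39. The exon length used is the union listed in the deposited table. It is long for some genes (8086 bases for Ndufs1, 6883 for Ndufab1), and their values per kb are low in proportion.

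**Figure D1:**
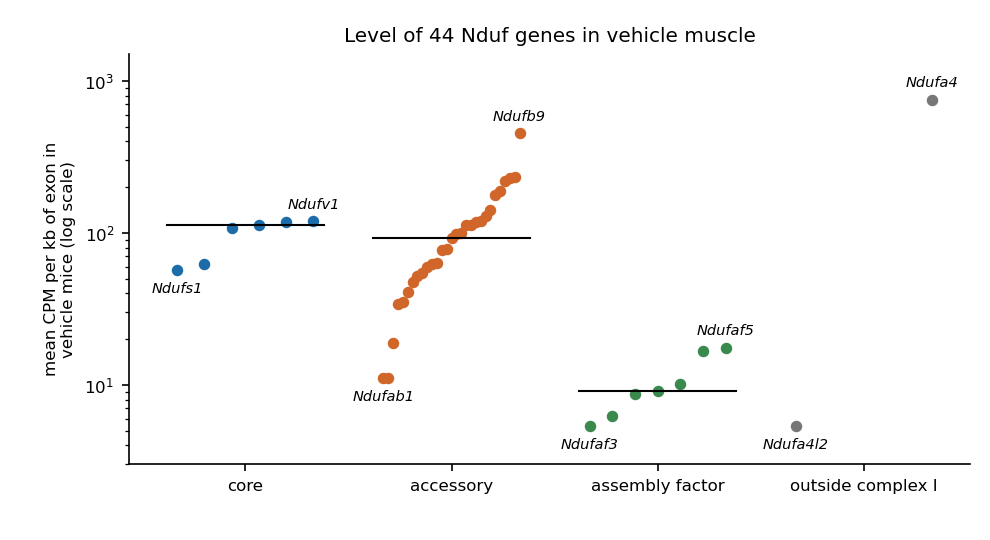
Level of 44 of the 45 Nduf genes in vehicle mice (both sexes), in CPM per kb of exon on a log axis, with each point a gene and each line the median of all genes of its class. The assembly factors, at 5.35 to 17.6 CPM per kb, lie below all core subunits, which start at 56.7.

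Complex I transcripts were lower in LLC1 than in vehicle muscle in both sexes, and none was called higher. In females 27 of the 45 genes fell (60%) and the other 18 did not pass, with a median log2 fold change of -0.35, a change of -21.6% in level. Of all genes tested, 4.95% were called lower in females. In males 17 of the 45 fell (37.8%) and 28 did not pass, with a median log2 fold change of -0.23, a change of -14.5%. Of all genes tested, 16.8% were called lower in males. Over all tested genes the median was -0.01 in females and 0.01 in males on the log2 scale. Averaged over the sexes, 39 of the 45 fell, against 20.2% of all genes tested. Calls are those of edgeR's quasi-likelihood test at a Benjamini-Hochberg adjusted p under 0.05 over the 17773 genes. In whole muscle, a smaller number of fibres or cells of a type and less RNA in each cannot be told apart.

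These shifts were small for each gene, and the count called in females changed with the mouse left out. For the fits below that leave out 1 mouse, the shares of all genes called lower are not given here. The counts alone therefore do not set a change in the members apart from a change over all genes. All 45 genes had a negative log2 fold change in females (as low as -0.51) and 42 did in males (-0.52 to 0.08). Without female LLC1 mouse 2-3 the count in females was 5, and the median log2 fold change -0.28. Without female LLC1 mouse 2-5 the count in females was 36, and the median -0.41. Without female vehicle mouse 2-1 the count was 6, without LLC1 mouse 1-4 it was 8, without vehicle mouse 2-3 it was 9, and without LLC1 mouse 1-5 or vehicle mouse 2-2 it was 10. In males the count was 27 without LLC1 mouse 1-4, and 11 without LLC1 mouse 1-5, LLC1 mouse 2-5 or vehicle mouse 1-4. Of the 27 genes called in females, Ndufs1, Ndufab1, Ndufc1, Ndufc2 and Ndufb2 were called in all 24 fits that left out 1 mouse, and the other 22 in 10 to 23 of them. In males 10 of the 17 were called in all 24 fits, and the other 7 in 11 (Ndufb10) to 23.

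**Figure D2:**
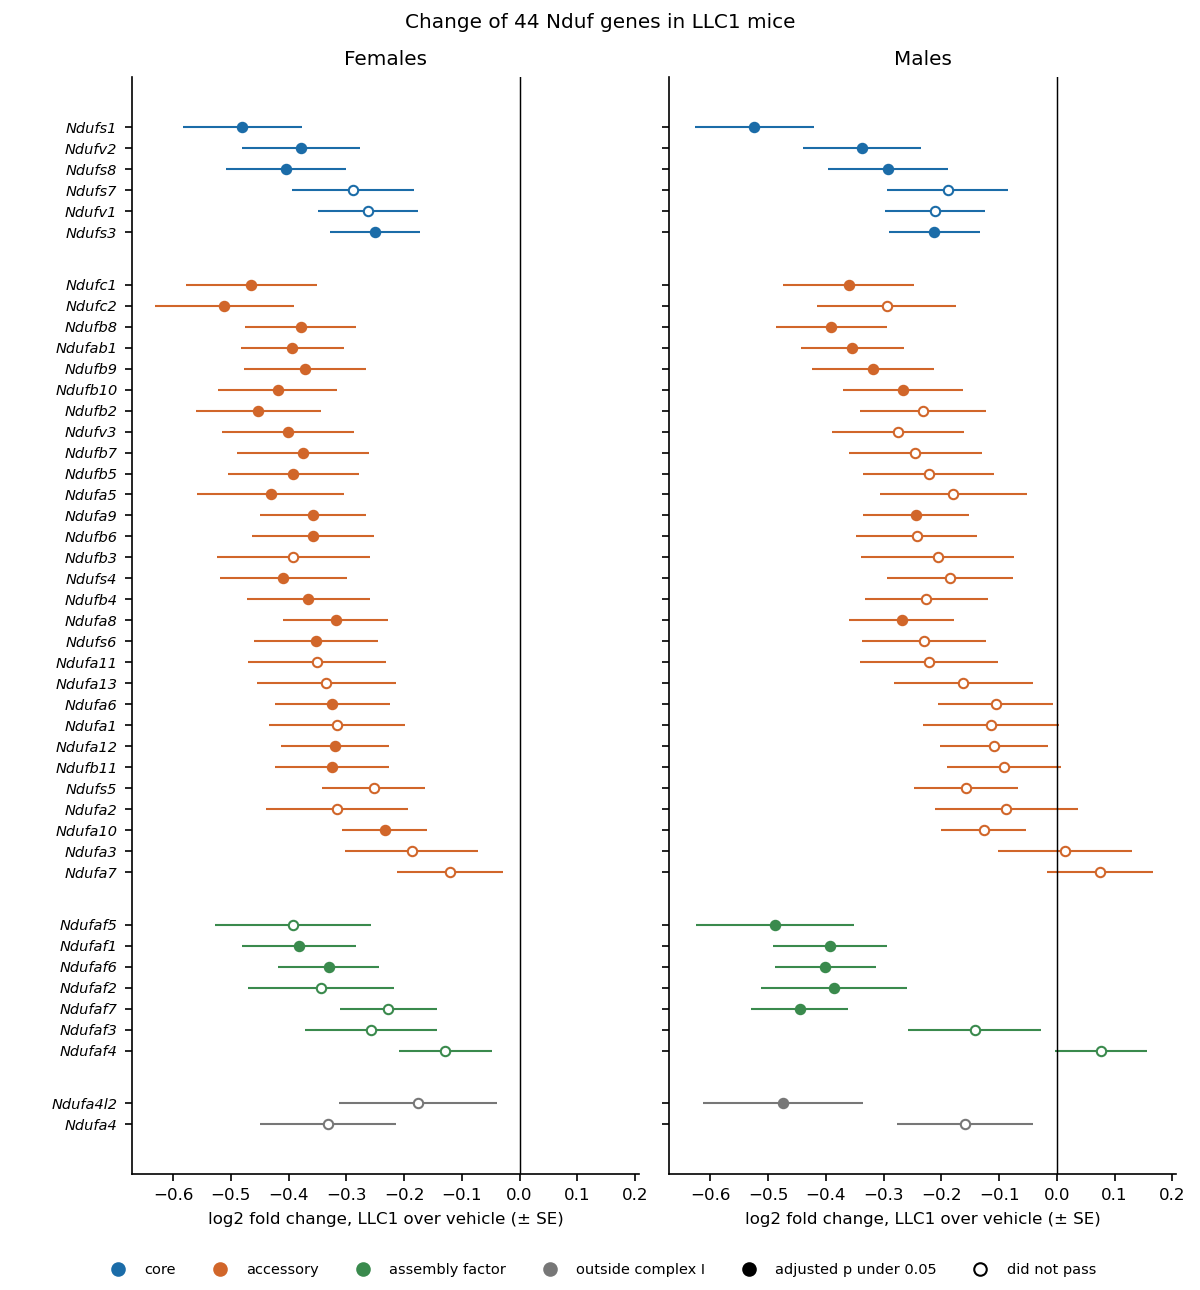
Log2 fold change of 44 of the 45 Nduf genes, LLC1 over vehicle, with its standard error, in females (left) and males (right), grouped by class and ordered within a class by the change averaged over the sexes. Filled points passed an adjusted p of 0.05; all 44 points drawn lie below 0 in females, and Ndufa3, Ndufa7 and Ndufaf4 lie above it in males.

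Of the core subunits, Ndufs1, Ndufv2, Ndufs8 and Ndufs3 fell in females, 4 of 7, and the same 4 fell in males. Over all genes tested, 4.95% were called lower in females and 16.8% in males. Ndufs1 (chr1:63143596-63176833, mm10), the large iron-sulphur protein of the NADH-oxidising N module, had a lowest, median and highest level of 259, 318 and 353 CPM in female LLC1 mice, against 387, 439 and 461 CPM in female vehicle mice. In males its levels were 265.3, 327 and 427 CPM in LLC1 mice, against 434, 475 and 565 CPM in vehicle mice. Every LLC1 mouse was below every vehicle mouse of its sex, which Ndufs1 alone of the 45 genes did in females. In males Ndufaf6 and Ndufaf7 did so too, 3 of 45. Over all genes tested, 2.5% separated in this way in females and 5.35% in males, so both member counts were near these shares. The log2 fold change of Ndufs1 was -0.48 ± 0.10 (SE, edgeR adjusted p = 0.00408) in females and -0.52 ± 0.10 (adjusted p = 5.73e-04) in males. It was called in all 24 fits without 1 mouse, in each sex. Over 6.05% of its exon length Ndufs1 overlaps Ino80dos, which had 14.5% as many counts, on the opposite strand, and the library kit does not record strand.

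Ndufv2, an iron-sulphur subunit of the N module, had 153, 175 and 214 CPM in female LLC1 mice, against 185, 237 and 259 CPM in female vehicle mice. Male mice had 142, 166 and 218 CPM in LLC1 mice, against 205, 213 and 245 CPM in vehicle mice. The groups overlapped in each sex. The decreases were -0.38 ± 0.10 (edgeR adjusted p = 0.0194) in females and -0.34 ± 0.10 (0.0125) in males on the log2 scale. Ndufv1, its partner, binds NADH and the flavin. It had 212, 244 and 296 CPM in female LLC1 mice, against 269, 297 and 330.1 CPM in female vehicle mice. Male LLC1 mice had 232.5, 260.3 and 289.9 CPM, against 273.6, 287.5 and 349 CPM in male vehicle mice. The groups overlapped, and log2 fold changes of -0.26 ± 0.09 in females and -0.21 ± 0.09 in males did not pass (edgeR adjusted p = 0.0552 and 0.0605).

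Ndufs8, Ndufs3 and Ndufs7 belong to the ubiquinone-reducing Q module. Ndufs8 carries iron-sulphur clusters close to the quinone site. Its levels were 71.9, 91.3 and 111 CPM in female LLC1 mice, against 105, 119 and 135 CPM in female vehicle mice. In males they were 75.0, 85.4 and 115 CPM in LLC1 mice, against 92.9, 108 and 124 CPM in vehicle mice. In both sexes 5 of 6 LLC1 mice were below the lowest vehicle mouse, with log2 fold changes of -0.40 ± 0.10 (edgeR adjusted p = 0.0149) and -0.29 ± 0.10 (0.0298).

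Ndufs3, which enters the complex early in assembly, had 103, 111.5 and 146 CPM in female LLC1 mice, against 128, 141 and 153 CPM in female vehicle mice. In males it had 108, 114 and 120.2 CPM in LLC1 mice, against 119.8, 129.9 and 147 CPM in vehicle mice. It fell by 0.25 ± 0.08 in females and by 0.21 ± 0.08 in males on the log2 scale (edgeR adjusted p = 0.0428 and 0.0367). The call was made in 10 of the 24 fits without 1 mouse in females and in 18 of them in males. Ndufs7, holder of the terminal cluster, had 127, 146 and 211 CPM in female LLC1 mice, against 165, 189 and 216 CPM in female vehicle mice. In male LLC1 mice it had 137, 153.5 and 176 CPM, against 159.9, 174 and 209 CPM in male vehicle mice. In each sex 4 of 6 LLC1 mice lay below the vehicle range, and log2 fold changes of -0.29 ± 0.11 in females and -0.19 ± 0.11 in males did not pass (edgeR adjusted p = 0.0806 and 0.163).

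Most of the female calls were accessory subunits, of which 21 of 29 fell in females (72.4%) and 7 of 29 in males (24.1%), where 16.8% of all genes tested were called lower. The 7 that fell in males were Ndufc1, Ndufb8, Ndufab1, Ndufb9, Ndufb10, Ndufa9 and Ndufa8, and each of them also fell in females. Ndufc2, a small membrane-arm subunit, had the most negative log2 fold change of all members in females, -0.51 ± 0.12 (edgeR adjusted p = 0.00842). Its levels were 41.5, 49.5 and 68.2 CPM in female LLC1 mice, against 64.5, 75.9 and 84.0 CPM in female vehicle mice, with 5 of 6 LLC1 mice below all vehicle mice. In males it had 42.6, 48.4 and 70.0 CPM in LLC1 mice, against 55.2, 64.6 and 71.8 CPM in vehicle mice, and did not pass (-0.29 ± 0.12, edgeR adjusted p = 0.0568).

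Ndufab1 (chr7:122085403-122101886), the mitochondrial acyl carrier protein, sits in both arms of the complex and also serves lipoic acid and fatty acid synthesis. Female LLC1 mice had 55.4, 61.4 and 70.0 CPM of it, against 67.6, 81.1 and 93.9 CPM in female vehicle mice. Male LLC1 mice had 50.5, 54.1 and 66.2 CPM, against 63.1, 71.6 and 79.1 CPM in male vehicle mice. A single LLC1 mouse of each sex reached into the vehicle range. Log2 fold changes were -0.39 ± 0.09 (edgeR adjusted p = 0.00669) in females and -0.35 ± 0.09 (0.00388) in males, and the call was made in all 24 fits without 1 mouse in both sexes. Copies of Ndufab1 at 95% identity or more over at least 200 bases exist elsewhere in the genome. The 2 with the most counts had 6.40% and 5.30% as many counts as Ndufab1, and the treatment of reads matching several places is not given in the sources used here. Matches at that identity and length, outside overlapping genes, were found for 11 members. For 8 of them, Ndufab1 included, the most counted match had at least 1% of the member's counts. It had 10.4% as many counts for Ndufs5, 9.61% for Ndufa12, 5.02% for Ndufb4, 4.96% for Ndufs3, 3.02% for Ndufb11 and 1.95% for Ndufs6. For Ndufaf2 it was Lrrc8d, another gene with a longest match of 261 bases, which had 98.2% as many counts. Ndufb5 overlaps the opposite-strand gene Mrpl47 over 12.3% of its exon length, with 37.0% as many counts for Mrpl47. Ndufb6 overlaps the opposite-strand gene Toporsos over 39.0% of its exon length, and Toporsos had 0.415 times its counts. Ndufb8 overlaps Gm20538, on the same strand, over 4.26% of its exon length, and Gm20538 had 0.42 times its counts. These shares compare the counts of whole genes and do not measure the reads from the shared stretches. How far the shared stretches alter the members' levels was not tested.

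Ndufb8, a membrane-arm subunit often probed on blots as a marker of assembled complex I, had 130, 153 and 199 CPM in female LLC1 mice, against 185, 203 and 233 CPM in female vehicle mice. Male mice had 120, 140 and 171 CPM in LLC1 mice, against 165, 188 and 208 CPM in vehicle mice. In each sex 5 of 6 LLC1 mice lay below the vehicle range. Its log2 fold changes were close in females and males, -0.38 ± 0.10 (edgeR adjusted p = 0.0141) and -0.39 ± 0.10 (0.00325). Ndufc1 of the proximal membrane arm had 57.3, 66.9 and 93.1 CPM in female LLC1 mice, against 86.3, 103 and 112 CPM in female vehicle mice. Its male levels were 58.3, 65.1 and 85.7 CPM in LLC1 mice, against 78.8, 89.75 and 95.3 CPM in vehicle mice. In each sex 4 of 6 LLC1 mice were below the vehicle range, and it fell by 0.46 ± 0.11 in females and by 0.36 ± 0.11 in males on the log2 scale (edgeR adjusted p = 0.0106 and 0.0157).

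Several accessory subunits fell in females and did not pass in males. Ndufb2 of the distal membrane arm had 38.4, 47.2 and 59.0 CPM in female LLC1 mice, against 56.6, 67.1 and 75.6 CPM in female vehicle mice (log2 fold change -0.45 ± 0.11, edgeR adjusted p = 0.00970). In male LLC1 mice it had 40.0, 48.7 and 60.7 CPM, against 49.5, 57.8 and 65.2 CPM in male vehicle mice (-0.23 ± 0.11, 0.0980). The LLC1 mice lay mostly below the vehicle mice in both sexes.

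Ndufa12, Ndufa6 and Ndufb11 had the smallest interaction p of the accessory subunits, and none of the 3 passed. Their interactions, the male log2 fold change minus the female one, were 0.21 ± 0.13, 0.22 ± 0.14 and 0.23 ± 0.14 (edgeR adjusted p = 0.511, 0.525 and 0.493). Ndufa12, an N-module subunit, had 52.1, 61.3 and 79.5 CPM in female LLC1 mice, against 69.9, 82.0 and 90.9 CPM in female vehicle mice (log2 fold change -0.32 ± 0.09, edgeR adjusted p = 0.0315). Levels in males were 63.2, 72.9 and 76.6 CPM in LLC1 mice, against 66.8, 78.2 and 85.0 CPM in vehicle mice (-0.11 ± 0.09, 0.38). Ndufa6, counted with the same module, had 90.3, 104.5 and 135 CPM in female LLC1 mice, against 120.3, 140.2 and 157 CPM in female vehicle mice (-0.32 ± 0.10, edgeR adjusted p = 0.0398). Male LLC1 mice had 92.9, 112 and 137.5 CPM of it, against 108.5, 119 and 140.5 CPM in male vehicle mice (-0.11 ± 0.10, 0.424). In females 4 of 6 LLC1 mice lay below the vehicle range for each of these genes. Ndufb11 of the distal membrane arm had 147, 165 and 221 CPM in female LLC1 mice, against 189, 225 and 245 CPM in female vehicle mice (-0.33 ± 0.10, edgeR adjusted p = 0.0372). Males had 151.5, 180.4 and 219 CPM of it in LLC1 mice, against 169, 196 and 221 CPM in vehicle mice (-0.09 ± 0.10, 0.488). The male groups overlapped for all 3 genes.

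Ndufs4, an N-module subunit whose loss in mice gives a Leigh-like encephalopathy, had -0.41 ± 0.11 (edgeR adjusted p = 0.0191) in females and -0.18 ± 0.11 (0.193) in males. Ndufa3 and Ndufa7 had the smallest changes of the accessory subunits: -0.19 and -0.12 in females, and 0.01 and 0.07 in males, with no call.

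By position in the enzyme, 9 of 10 subunits of the distal membrane arm fell in females, as did 7 of 10 in the N module, 4 of 6 in the Q module and 4 of 9 in the proximal membrane arm. In males the counts were 3 of 10, 2 of 10, 3 of 6 and 2 of 9. Median log2 fold changes differed little by position. They were -0.38, -0.34, -0.32 and -0.32 in females and -0.24, -0.20, -0.20 and -0.16 in males, in the same order. In males the 20% of the N module and 22.2% of the proximal membrane arm called lower were near the 16.8% of all genes tested. In females 4.95% of all genes tested were called lower. Ndufab1, present in both arms, is counted apart.

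Of the assembly factors, 2 of 7 fell in females (28.6%) and 5 of 7 in males (71.4%). The shares of all genes tested that were called lower were 4.95% in females and 16.8% in males. Ndufaf1, a member of the assembly complex that builds the proximal membrane arm, passed in both. It had 17.6, 19.6 and 22.3 CPM in female LLC1 mice, against 21.3, 26.1 and 28.1 CPM in female vehicle mice. In males it had 16.5, 17.9 and 25.2 CPM in LLC1 mice, against 23.1, 23.6 and 30.4 CPM in vehicle mice. In each sex 5 of 6 LLC1 mice were below the vehicle range, and the log2 fold changes were -0.38 ± 0.10 (edgeR adjusted p = 0.0153) and -0.39 ± 0.10 (0.00378).

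Ndufaf6, needed for the Q module, also passed in both sexes. Its levels were 8.76, 10.6 and 11.4 CPM in female LLC1 mice, against 11.3, 12.7 and 14.5 CPM in female vehicle mice. In males the LLC1 mice had 7.68, 9.42 and 11.2 CPM and the vehicle mice 11.5, 12.5 and 12.9 CPM. The male groups did not overlap, and in females 1 LLC1 mouse did. Log2 fold changes were -0.33 ± 0.09 (edgeR adjusted p = 0.0171) in females and -0.40 ± 0.09 (0.00133) in males.

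Ndufaf5 and Ndufaf7 modify core subunits of the Q module. Ndufaf7 (chr17:78937135-78948052), a methyltransferase, had 9.73, 12.1 and 12.9 CPM in female LLC1 mice, against 12.3, 13.6 and 14.95 CPM in female vehicle mice. Male mice had 9.82, 11.4 and 12.7 CPM in LLC1 mice, against 13.8, 15.5 and 16.6 CPM in vehicle mice. The male groups were fully apart, and the male log2 fold change of -0.45 ± 0.08 had the smallest adjusted p of any member in males (edgeR, 4.07e-04). The female log2 fold change was -0.23 ± 0.08 and did not pass (0.0829). Ndufaf5, which hydroxylates Ndufs7, had 23.7, 24.8 and 35.1 CPM in female LLC1 mice, against 31.4, 35.7 and 41.4 CPM in female vehicle mice (-0.39 ± 0.14, edgeR adjusted p = 0.0646). In male LLC1 mice it had 12.3, 18.2 and 25.8 CPM, against 24.1, 27.1 and 29.7 CPM in male vehicle mice (-0.49 ± 0.14, 0.00769). In each sex 4 of 6 LLC1 mice lay below the vehicle range.

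Ndufaf3 and Ndufaf4, which act as a pair on the early Q module, did not pass in either sex. Ndufaf4 had 28.6, 31.4 and 34.0 CPM in female LLC1 mice, against 27.5, 35.4 and 38.3 CPM in female vehicle mice. It had 31.5, 35.0 and 40.5 CPM in male LLC1 mice, against 30.2, 32.4 and 38.6 CPM in male vehicle mice. The ranges overlapped in both sexes, with log2 fold changes of -0.13 ± 0.08 in females and 0.08 ± 0.08 in males (edgeR adjusted p = 0.326 and 0.478). Ndufaf3 had 7.36, 8.74 and 10.8 CPM in female LLC1 mice, against 9.79, 10.4 and 12.9 CPM in female vehicle mice (-0.26 ± 0.11, edgeR adjusted p = 0.151). In male LLC1 mice it had 7.01, 7.49 and 9.38 CPM, against 6.51, 8.44 and 10.6 CPM in male vehicle mice (-0.14 ± 0.12, 0.350). Here 4 of 6 LLC1 mice were below the vehicle range in females and 0 in males. Ndufaf2, the assembly-stage relative of Ndufa12, fell in males (-0.39 ± 0.13, edgeR adjusted p = 0.0201) and did not pass in females (-0.34 ± 0.13, 0.0821). Stretches of its exons match several other genes at 95% identity or more, among them Lrrc8d, which had 98.2% as many counts, so the Ndufaf2 level is uncertain.

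Of 11 further assembly factors listed by name, 8 were in the table under those names, and 2 fell in females and 5 in males. Beside these counts, 4.95% of all genes tested were called lower in females and 16.8% in males. Tmem126b, a partner of Ndufaf1 in the membrane-arm assembly complex, had a log2 fold change of -0.08 ± 0.09 in females and -0.40 ± 0.09 (edgeR adjusted p = 0.00215) in males. Acad9, of the same assembly complex, fell in both sexes, by 0.25 ± 0.07 in females (edgeR adjusted p = 0.0209) and by 0.22 ± 0.07 in males (0.0160). Nubpl, which delivers iron-sulphur clusters to complex I, was near 0 in both (0.04 and 0.02).

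Ndufa4 and Ndufa4l2 had negative log2 fold changes in both sexes, and both fell when the sexes were averaged (edgeR adjusted p = 0.0207 and 0.0101). The difference between the 2 genes was not tested. Ndufa4, very abundant in muscle, had 245, 300.3 and 340.1 CPM in female LLC1 mice, against 303, 377 and 439 CPM in female vehicle mice. In males it had 252, 319 and 415 CPM in LLC1 mice, against 308, 374 and 404 CPM in vehicle mice. It passed in neither sex (-0.33 ± 0.12 and -0.16 ± 0.12, edgeR adjusted p = 0.0725 and 0.301). Ndufa4l2, known as a hypoxia-inducible gene, had 3.72, 4.62 and 5.26 CPM in female LLC1 mice, against 4.14, 5.10 and 6.58 CPM in female vehicle mice (-0.18 ± 0.14, 0.451). In males it had 3.07, 3.59 and 4.57 CPM in LLC1 mice, against 3.86, 4.90 and 7.45 CPM in vehicle mice (-0.47 ± 0.14, edgeR adjusted p = 0.0103). The ranges overlapped in both sexes. A stretch of 2.92% of its exon length lies opposite Shmt2, which had 4.62 times its counts, and the library kit does not record strand.

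**Figure D3:**
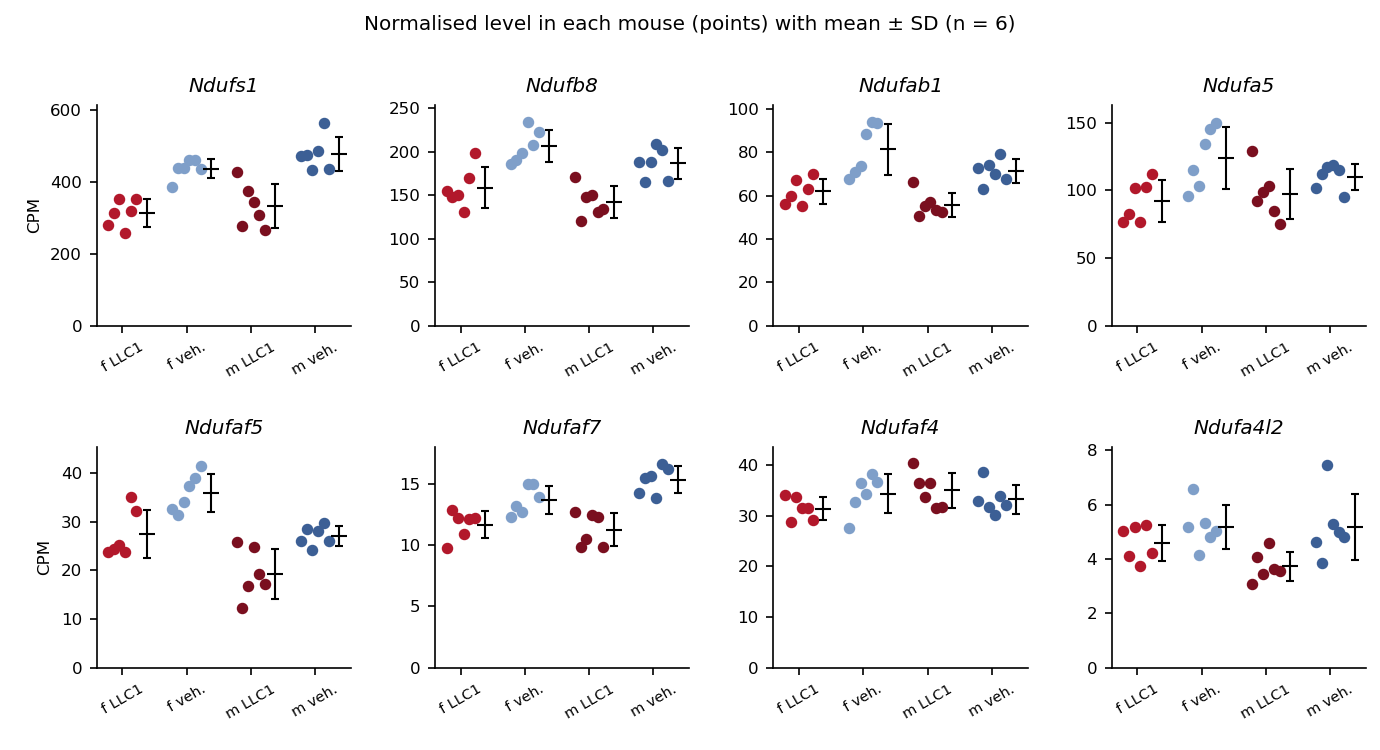
Level in CPM of 8 Nduf genes in each mouse (points), with the mean and SD of the 6 mice of a group, axes starting at 0. Ndufs1 separates LLC1 from vehicle mice in both sexes and Ndufaf7 in males, while the groups of Ndufaf4 overlap. Of all genes tested, 2.5% had every LLC1 mouse below every vehicle mouse in females and 5.35% in males.

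The sexes were compared directly by the interaction of LLC1 with sex, since a call in 1 sex and not in the other is no test of a difference. None of the 45 genes was called, nor was any of the 17773 genes tested (0% of them). At an unadjusted p under 0.05 there were 2191 genes (12.3%) and 0 members. DESeq2 called 42 of 19586 genes and limma-voom 0 of 17773, with 0 members in either. The interaction is the male log2 fold change minus the female one. It was positive, a smaller decrease or a slight increase in males, for 34 of the 36 subunits (median 0.13) and for 2 of the 7 assembly factors (median -0.04). Subunits share mice and are not independent, so these signs carry no test. The most positive value was that of Ndufa5 of the Q module, 0.25 ± 0.18 (95% interval -0.12 to 0.63), with 3 of 6 LLC1 mice below the vehicle range in each sex. Its log2 fold change was -0.18 ± 0.13 in males (edgeR adjusted p = 0.28) and -0.43 ± 0.13 in females (0.0324). Male LLC1 mice had 75.6, 95.6 and 129 CPM of it, against 95.0, 114 and 119 CPM in male vehicle mice. Female LLC1 mice had 76.4, 92.5 and 112 CPM, against 95.7, 125 and 150.3 CPM in female vehicle mice. The most negative was that of Ndufa4l2, -0.30 ± 0.19 (-0.70 to 0.11). For these 2 genes, with 6 mice a group, differences between the sexes of any size inside the intervals were not excluded.

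The matching overlap of calls over all genes tested is not given here, so the overlap of the members is described only. The genes called in each sex overlapped in 13 names, 48.1% of the 27 female calls and 76.5% of the 17 male calls. They are Ndufs1, Ndufs3, Ndufs8, Ndufv2, Ndufa8, Ndufa9, Ndufab1, Ndufb8, Ndufb9, Ndufb10, Ndufc1, Ndufaf1 and Ndufaf6. The 14 called in females alone were all accessory subunits. The 4 called in males alone were Ndufaf2, Ndufaf5, Ndufaf7 and Ndufa4l2. Another 8 genes passed only when the sexes were averaged, and 6 passed in none of these comparisons, among them Ndufa2, Ndufa3, Ndufa7, Ndufaf3 and Ndufaf4.

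The sexes were also set against each other directly. Among vehicle mice no member was called between males and females, where 6.23% of all genes tested were called in either direction. The median log2 difference, male over female, was -0.11 over the 45 genes, and 7 members had an unadjusted p under 0.05. Among LLC1 mice 1 member, Ndufaf5, was lower in males (-0.51 ± 0.14, edgeR adjusted p = 0.0147), where 6.07% of all genes tested were called lower. Ndufaf5 was also the member with the smallest p among vehicle mice, at -0.41 ± 0.14, and did not pass there (0.0717). Markers of slow and oxidative fibres had a median log2 difference of -0.98, male over female, among vehicle mice with 0 of 9 called, and their part in the sex differences was not tested.

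Within a group, the subunits moved up and down together from mouse to mouse. The mean log2 level of the 36 subunits, set against the vehicle mean of the same sex, was -0.60, -0.38 and -0.05 (lowest, median, highest) in female LLC1 mice, against -0.23, 0.01 and 0.16 in female vehicle mice. In males it was -0.41, -0.25 and 0.07 in LLC1 mice, against -0.17, 0.00 and 0.14 in vehicle mice. The groups overlapped in both sexes. Female LLC1 mouse 2-3 was the lowest of all, with 36 of 36 subunits below the vehicle mean, and male LLC1 mouse 1-4 the highest of the LLC1 mice, with 14 of 36. The within-group SD of a subunit's log2 level had a median of 0.185, close to the 0.191 of all genes at 1 CPM or more. Once the mean of the other subunits in the same mouse was subtracted, the median SD was 0.0915, between 0.0361 for Ndufb9 and 0.136 for Ndufb3.

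**Figure D4:**
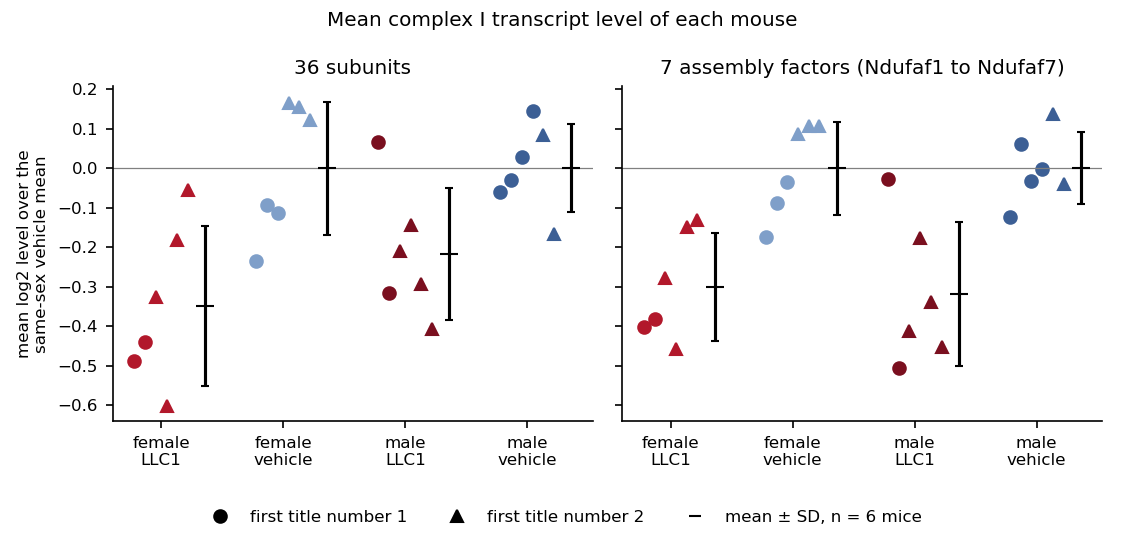
Mean log2 level of the 36 subunits (left) and of Ndufaf1 to Ndufaf7 (right) in each mouse, set against the vehicle mean of the same sex, with the symbol showing the first number in the title and the bar the mean and SD of 6 mice. Subunit means span -0.60 to -0.05 in female LLC1 mice and -0.23 to 0.16 in female vehicle mice, and the female vehicle mice split by their first number.

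In female vehicle mice this spread followed the first number of the mouse's title, and in the other groups the numbers overlapped. The 3 female vehicle mice numbered 1 had subunit means of -0.23 to -0.09, and the 3 numbered 2 had 0.12 to 0.16. In female LLC1 mice the values were -0.49 and -0.44 for number 1 and -0.60 to -0.05 for number 2. Male LLC1 mice numbered 1 had -0.32 and 0.07, and those numbered 2 had -0.41 to -0.14. Male vehicle mice numbered 1 had -0.06 to 0.14, and those numbered 2 had -0.17 and 0.08. Within the mice numbered 1 alone, the median log2 fold change of the 45 genes was -0.31 in females and -0.14 in males, with 0 called in each. Within those numbered 2 alone it was -0.42 in females and -0.26 in males, with 9 and 5 called. The direction was thus the same within each number, from 2 to 4 mice a group. The shares of all genes called lower within each number are not given here.

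**Figure D5:**
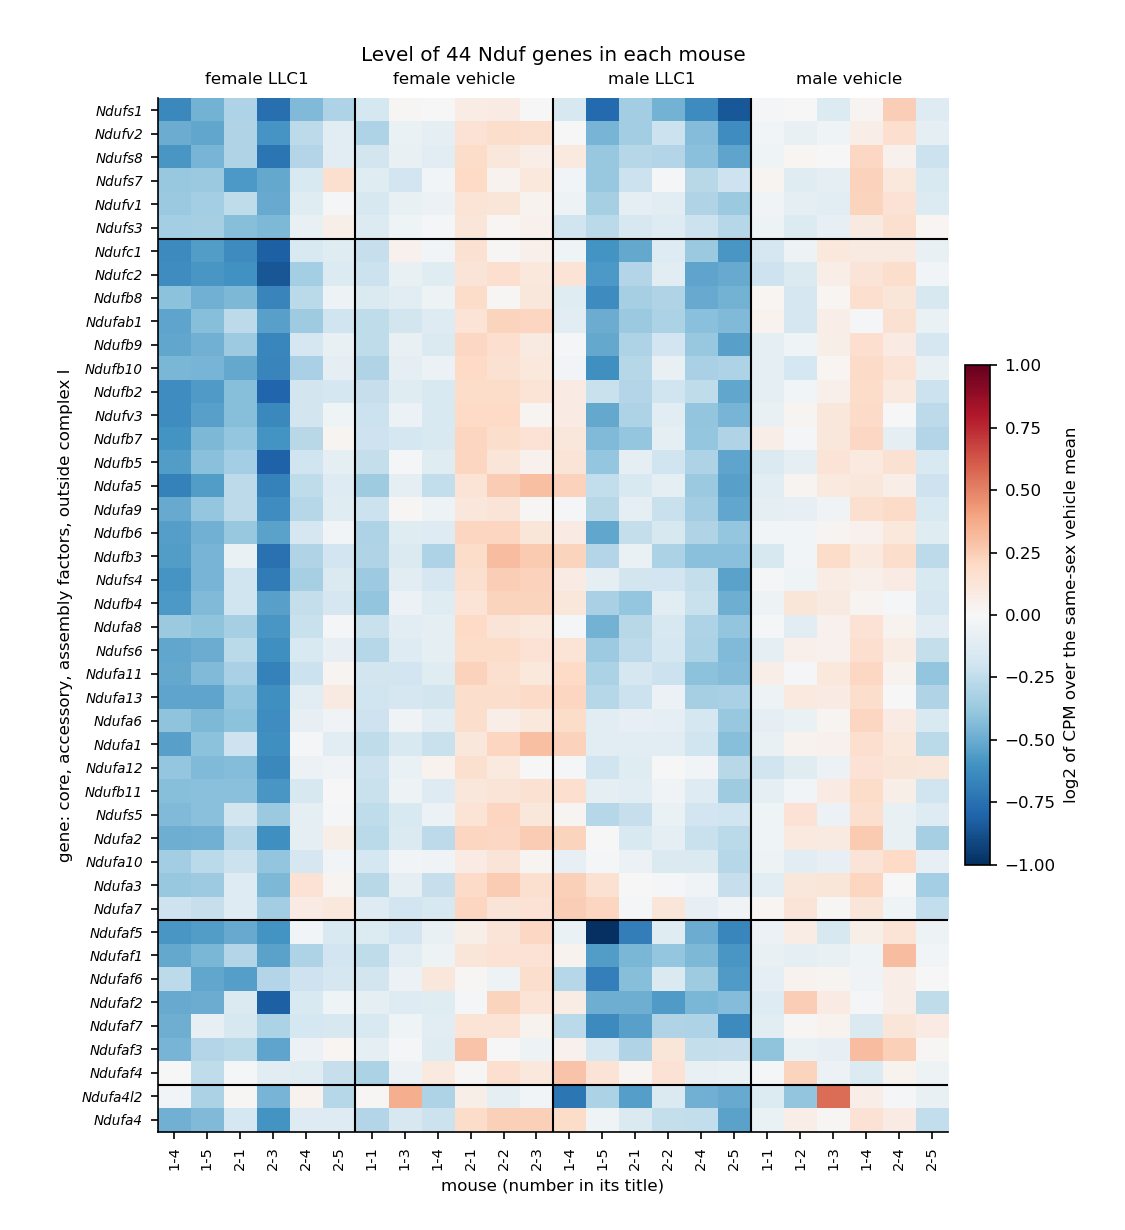
Log2 level of 44 of the 45 Nduf genes (rows, by class) in each of the 24 mice (columns, by group), set against the vehicle mean of the same sex, from lower (blue) to higher (red). Whole columns share a colour: female LLC1 mouse 2-3 is low and male LLC1 mouse 1-4 is near or above the vehicle level across most rows.

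The promoters were searched for the letters of 4 factors known to act on respiratory chain genes. RefSeq (GRCm38.p6) gave windows of 250 bases before to 50 bases after the start for 39 of the 45 genes, and among those with none were Ndufs1, Ndufb9, Ndufa2, Ndufaf6 and Ndufa4l2. The NRF1 letters GCGCANGCG, on either strand, stood in the windows of 10 of 39 members (25.6%) and of 7.03% of all 27025 genes with a window. The YY1 letters AANATGGCG stood in 7 (17.9%), against 2.76% of all genes. ETS/GABP letters CCGGAAGT stood in Ndufs3 alone (2.56%, against 4.31%), and the ERR letters TNAAGGTCA in Ndufb4 alone (2.56%, against 1.43%). A match is a run of letters and not a measured binding site. Ndufb4 held the most matches, and the 250 bases before its start (chr16:37654369-37654618, minus strand) are shown with the NRF1 and ERR letters in capitals, next to those of Ndufa8 (chr2:36049339-36049588, minus strand), which fell in both sexes and has a pair of NRF1 matches close to the start.
Ndufb4: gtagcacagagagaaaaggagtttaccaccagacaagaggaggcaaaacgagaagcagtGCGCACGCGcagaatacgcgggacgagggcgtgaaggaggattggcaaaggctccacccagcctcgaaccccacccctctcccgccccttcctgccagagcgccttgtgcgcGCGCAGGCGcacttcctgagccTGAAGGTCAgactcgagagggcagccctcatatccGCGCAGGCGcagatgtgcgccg
Ndufa8: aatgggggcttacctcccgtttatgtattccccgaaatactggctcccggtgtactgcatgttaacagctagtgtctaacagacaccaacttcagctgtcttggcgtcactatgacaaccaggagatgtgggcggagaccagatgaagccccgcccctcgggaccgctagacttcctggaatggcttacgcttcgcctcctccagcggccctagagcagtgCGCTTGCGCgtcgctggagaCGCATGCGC

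In Ndufb4 the NRF1 letters start 191, 79 and 22 bases before the RefSeq transcription start and the ERR letters 57 bases before it. In Ndufa8 the NRF1 letters start 29 and 9 bases before the RefSeq start. The deposited table places these starts farther upstream, at base 37654453 for Ndufb4 and 36049406 for Ndufa8. All of these sites but the one at 191 bases therefore lie inside the genes as listed there. The remaining members with NRF1 letters were Ndufa5, Ndufa6, Ndufa11, Ndufb10, Ndufs5, Ndufs6, Ndufaf4 and Ndufaf5. Of the 10, Ndufa5, Ndufa6, Ndufa8, Ndufb4, Ndufb10 and Ndufs6 fell in females and Ndufa8, Ndufb10 and Ndufaf5 in males. The NRF1 letters overlap their own reverse complement, so a site such as that of Ndufaf4 matches on both strands.

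The YY1 letters contain ATG, and in 6 of the 7 members this was the annotated start codon of the protein. Those 6 sites are shown with 5 bases either side, on the gene's strand, the matched letters in capitals.
Ndufa7: gaaggAATATGGCGtccgc
Ndufa9: gggagAAGATGGCGgccgc
Ndufc1: ggaacAAGATGGCGccgtc
Ndufs4: acaggAAGATGGCGgcggt
Ndufs6: ccggcAAGATGGCGgcggt
Ndufs7: aggccAAGATGGCGgcgct

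All but Ndufa7 share the same 9 letters, and their sites begin between base 23 and base 36 of the transcript. Ndufa9, Ndufc1, Ndufs4 and Ndufs6 fell in females, Ndufa9 and Ndufc1 also in males, and Ndufa7 and Ndufs7 did not pass in either sex. The promoter letters thus occur both in members that fell and in members that did not.

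Among 14 known regulators of respiratory chain genes, listed by name, 3 rose and 0 fell in females, and 5 rose and 3 fell in males. Of all genes tested, 4.95% were called lower in females and 16.8% in males, so the 3 of 14 that fell in males are near that share. The shares of all genes called higher are not given here. Ppargc1b, a coactivator of mitochondrial genes, had log2 fold changes of -0.43 ± 0.19 (edgeR adjusted p = 0.159) in females and -1.14 ± 0.20 (2.08e-04) in males. Esrra, the estrogen-related receptor it works with, had -0.44 ± 0.15 (0.0557) in females and -0.60 ± 0.15 (edgeR adjusted p = 0.00319) in males. Ppargc1a fell in males by 0.35 ± 0.12 (0.0238), with -0.17 ± 0.12 in females. The factor Nrf1 rose in males (0.39 ± 0.07, edgeR adjusted p = 2.02e-04), with 0.19 ± 0.07 (0.0761) in females. Pprc1, a coactivator of the same family as Ppargc1a and Ppargc1b, rose in both sexes, by 0.33 ± 0.11 in females and 0.57 ± 0.11 in males (edgeR adjusted p = 0.0478 and 3.53e-04). Nrip1, a corepressor of nuclear receptors, rose in females (0.65 ± 0.14, edgeR adjusted p = 0.00355), with 0.16 ± 0.14 (0.362) in males. The nuclear receptor Ppard rose in males (0.51 ± 0.09, edgeR adjusted p = 3.20e-04), with 0.27 ± 0.09 (0.0655) in females. Gabpa, the DNA-binding subunit of GABP, rose in males by 0.22 ± 0.08 (edgeR adjusted p = 0.0252), with -0.02 ± 0.08 in females. Yy1 rose in both, by 0.28 ± 0.07 in females and 0.37 ± 0.07 in males (edgeR adjusted p = 0.0120 and 4.49e-04). Tfam, which maintains mitochondrial DNA, was near 0 in both sexes (-0.07 and -0.06).

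No gene of the other complexes listed, nuclear-encoded alone, was called higher. In females 3 of 6 tested genes of complex II fell, as did 5 of 9 of complex III, 4 of 11 of complex IV and 10 of 16 of the ATP synthase. In males the counts were 4 of 6, 4 of 9, 2 of 11 and 9 of 16. Of all genes tested, 4.95% were called lower in females and 16.8% in males, so the complex IV count in males is near that share. Median log2 fold changes were -0.23, -0.37, -0.35 and -0.32 in females and -0.27, -0.25, -0.19 and -0.26 in males, in the same order, around the complex I subunit medians of -0.36 and -0.22. Whether complex I differs from them was not tested.

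Genes of other cells moved with the tumour as well. All 12 neutrophil markers rose in both sexes, their sum reaching 70 to 189 CPM in female LLC1 mice, against 4.57 to 9.58 CPM in female vehicle mice, and 73.2 to 194 CPM in male LLC1 mice, against 3.41 to 8.86 CPM in male vehicle mice. All 7 erythroid markers rose, to a sum of 1230 to 20000 CPM in female LLC1 mice, against 474 to 1030 CPM in female vehicle mice, and of 1210 to 4290 CPM in male LLC1 mice, against 426 to 1080 CPM in male vehicle mice. Of 9 markers of slow and oxidative fibres none passed in either sex, with sums of 6670 to 10200 CPM in female LLC1 mice, against 6560 to 11900 CPM in female vehicle mice, and of 3990 to 7670 CPM in male LLC1 mice, against 4540 to 9010 CPM in male vehicle mice. In the sex-averaged comparison 1 of these 9 markers was called lower, where 20.2% of the genes tested were. Skeletal muscle markers fell for 2 of 8 genes in females and 3 of 8 in males. A lower call was made for 4.95% of the genes tested when female mice were compared, and for 16.8% with male mice. Shares called higher are not given here, and no marker list was tested against such a share. Of the other marker lists, 0 of 11 macrophage markers passed in females and 2 rose in males, 1 of 8 markers of fibro-adipogenic progenitors fell in females and 5 in males, and 1 rose in each. Endothelial markers rose for 2 of 8 in females and 3 of 8 in males, where 3 fell, and no adipocyte marker of 7 passed in either sex. Of 4 tested markers of cardiac and smooth muscle, 1 fell in males. The part of these cells in the complex I decrease was not tested.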

How the data were processed

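Poly(A) RNA libraries of 24 gastrocnemius muscles were made with an unstranded TruSeq RNA kit, per the labels' protocols. The submitters' processing notes name mm10, STAR, featureCounts and CASAVA, with options that the sources used here do not give. The authors deposited whole-number read counts for 43346 genes, not normalized. Members were all protein-coding rows whose names start with Nduf. The members, lists and tests were chosen with earlier results of these data known. The mouse numbers in the titles are unique within a group and recur between groups, and a p-value reflects only the spread between such libraries. Within-group pairs of libraries differed by a chi-square of 10.05 to 211 per degree of freedom, so none repeated another.

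Counts were tested with edgeR 4.0.16 in R 4.3.3 (filterByExpr, TMM factors of 0.924 to 1.10, robust quasi-likelihood, 4 group means, 20 residual degrees of freedom, biological coefficient of variation 0.174). Benjamini-Hochberg adjustment ran over the 17773 genes tested, with a call at 0.05. Standard errors follow from the F statistic, and 95% intervals from them and 20 degrees of freedom. Alternatives used limma 3.58.1 and DESeq2 1.42.0. Scripts were tested on simulated data. One core subunit is counted in all totals, and its own values are not reported here. Values in full are given for core subunits, for the 3 genes of each class with the smallest p in a comparison, for the extreme fold changes, and for Ndufa4 and Ndufa4l2. Some further members are named with shorter values, and several of these were picked after their values were seen.

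Exon overlaps and near copies (blastn 2.17.0) used GENCODE M21, in which 27 of the 45 members had the coordinates of the deposited table. Of the members, 19 overlapped an exon of another gene, and 0 did so over 10% of their exon length with a gene of at least 0.5 times their counts.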

Additional observations from a re-analysis of the deposited data

Results flagged for a closer look

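In each group of 6 mice the highest and lowest CPM of every Nduf gene were set against the other 5 by Dixon's test at the 95% level, which marks about 1 in 20 groups by chance. Of 180 combinations of gene and group, 7 were marked. Male LLC1 mouse 1-4 was the highest of its group in 4 of them: Ndufs8 at 115 CPM (next 88.5), Ndufa11 at 115 CPM (next 88.9), Ndufaf1 at 25.2 CPM (next 18.8) and Ndufaf2 at 6.5 CPM (next 4.59). Male vehicle mouse 2-4 was the highest for Ndufaf1, at 30.4 CPM (next 24.2). Female vehicle mouse 2-1 was the highest for Ndufaf3, at 12.9 CPM (next 10.6). Female vehicle mouse 1-1 was the lowest for Ndufs1, at 387 CPM (next 437), and still lay above every female LLC1 mouse.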

How the results depend on the processing

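In females no alternative turned the direction of any Nduf gene, and no setting called a member higher with LLC1 in either sex. Normalization, filter, DESeq2, limma-voom and a fit of each sex alone gave 20 to 30 lower genes in females and 11 to 18 in males, where library totals gave 11. Limma-voom with sample weights gave 41 in females and 25 in males. For these settings and those below, the shares of all genes called lower are not given here. A change in the members and a change over all genes are therefore not told apart by the counts. Leaving out each mouse in turn gave 5 to 36 in females, 11 to 27 in males, 38 to 41 averaged over the sexes, 0 to 1 lower in male than in female vehicle mice, and 0 to 3 higher in male than in female LLC1 mice. The mice numbered 1 alone gave 0 in females and 0 in males, with 4 for the average, and those numbered 2 alone gave 9, 5 and 29. These fits held 2 to 4 mice a group. The title number as a replicate block gave 1 lower gene in females, 13 in males and 28 averaged. The first title number as a block gave 30, 20 and 40. The title numbers were not shown to pair the mice: of 20 pairs with the same number, 3 had correlated deviations above 0.1 (median 0.0093). Between the sexes in vehicle mice, library totals gave 3 genes lower in males, sample weights 2, the vehicle mice alone 1 and the mice numbered 2 alone 4. Library totals put the median of all genes there at -0.106 on the log2 scale, against -0.01 with TMM factors. Between the sexes in LLC1 mice, DESeq2 and sample weights each called 3 genes higher in males, and the LLC1 mice alone and the mice numbered 1 alone called 0 lower. The interaction gave 0 members in all fits. Fitting only a comparison's own mice was not run for the interaction and the average. No direction turned in a comparison in which the gene was called. In males these included Ndufa4 (0.0418), Ndufa6 (0.0255), Ndufb11 (0.0116) and Ndufa1 (0.0325) in the mice numbered 1, and Ndufa2 (0.0170 in the mice numbered 1, 0.0041 in those numbered 2). Ndufa3 in males was -0.0184 with sample weights, -0.0406 and -0.0036 with the title number and the first number as a block, and -0.0465 to 0.0614 without 1 mouse. Averaged, Ndufaf4 was 0.0203 with library totals and 0.0890 in the mice numbered 1, and Ndufa7 was 0.0160, 0.0564 and, without 1 mouse, -0.0461 to 0.0069. For the interaction, Ndufaf3 was -0.0315 in the mice numbered 2. The causes of these changes were not tested. The members with the fewest counts were Ndufa4l2 and Ndufaf2, at as little as 3.07 and 3.46 CPM in a mouse.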
